A study of Saccharomyces cerevisiae with 9 samples.

Results

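The Ypk2 inhibition time course was followed through the order in which transcripts moved after the kinase was blocked. It comprised 4 of the 9 arrays of the study, those labelled Ypk2 at 0, 15, 30 and 60 min, chosen by that label. The study measured polyA RNA of Saccharomyces cerevisiae, budding yeast, in a background deleted for both YPK1 and YPK2 (ypk1Δ ypk2Δ), so that all strains lived on a plasmid-borne kinase. In the Ypk2 series the Cy3 channel held cells with wild-type Ypk2 (WT) and the Cy5 channel held cells with an analog-sensitive Ypk2 (AS), a form engineered to accept a bulky ATP analog that the wild-type enzyme does not bind. Both cultures were grown in SCD-Leu, a synthetic glucose medium without leucine, and both received 3-MB-PP1 (written 3-MB-PPI in the labels) at 1 µM for the same time. Each ratio of AS over WT at 15, 30 and 60 min therefore compares inhibited cells with inhibitor-treated cells whose kinase was insensitive. The 0 min ratio compares the strains before inhibition. A parallel Ypk1 series of 4 arrays used AS and WT Ypk1 with 2,3-DMB-PP1 at 0.5 µM, and 1 array without inhibitor compared WT Ypk2 cells (Cy5) with WT Ypk1 cells (Cy3), called the WT array below. The plasmids' promoter and the number of clones are not given in the sources used here. There was 1 array per condition and no dye swap, so a strain difference, a dye effect and a single odd array cannot be told apart at any one time. The p-values below measure the spread between times, possibly of 1 culture, and not the spread between cultures. That spread was estimated from the Ypk2 and Ypk1 series together, so scatter of a gene in the Ypk1 series enters its p-value. Each SD given covers the Ypk2 arrays alone.

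Ypk1 and Ypk2 are paralogous AGC-family kinases that cells need for growth and that can stand in for each other. They are activated at the plasma membrane by the TOR complex TORC2 and by Pkh kinases, and they act on sphingolipid synthesis through the Orm proteins, on ceramide synthase, on lipid flippases and on the cell wall. Loss of their function is known to perturb the membrane and the cell wall, which activates the Slt2 MAP kinase and calcineurin, and TOR signalling as a whole is known to promote ribosome production and to hold stress genes down.

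Values are log2 ratios of AS over WT relative to the median feature of the array, so 1 is a 2-fold difference. Deposited array medians in the Ypk2 series were −0.24, −0.20, −0.31 and −0.38 at 0, 15, 30 and 60 min, and without centring every ratio is lower by that amount. A total of 6220 features had a value on all 8 time course arrays. The number at least 2-fold apart went from 303 at 0 min to 824, 756 and 1039. Across 6218 genes measured on all 9 arrays, the 30 and 60 min arrays correlated at r = 0.75, the 15 and 30 min arrays at 0.55 and the 15 and 60 min arrays at 0.41. These correlations are descriptions across genes, which are not independent, of ratios with the same strains in the same channels. The 60 min array had 43 missing values against at most 1 on the other 3.

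YPK2 (YMR104C), the gene carried on the plasmid, had ratios of 1.06, 1.36, 1.53 and 1.36. It was therefore higher in AS cells before the inhibitor as well as after, with a mean over the 3 later times of 1.42 ± 0.09 (SD, n = 3; adjusted p = 0.00733). YPK1 (YKL126W), deleted in both strains, had −0.10, 0.20, 0.11 and −0.62, an SD of 0.37 over 4 times. Its deposited log2 values at 15 and 60 min were 0.0 and −1.0, ratios of whole numbers, a point taken up with the genes at 60 min. An array of ratios gives no level, so the cells could be checked by mating-type genes only for differences between strains. Of 5 genes that mark a cells, STE2, STE6, MFA1 and MFA2 lay between −0.22 and 0.92 at all times. BAR1, the a-cell protease that degrades alpha factor, had −0.08, 1.60, 2.51 and 2.52 (later mean 2.21 ± 0.53, adjusted p = 0.00733). Of 3 alpha-cell genes, STE3 lay between −0.08 and 0.20, SAG1 between 0.42 and 1.28, and MF(ALPHA)1, an alpha factor precursor, had 0.75, −0.86, −1.15 and −1.67 (later mean −1.23 ± 0.41, adjusted p = 0.0125). Thus 1 a-cell gene was higher and 1 alpha-cell gene lower in AS cells after the inhibitor, and the other markers did not pass the test.

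A gene was called apart at a time when its ratio was at least 1 in one direction and lay at least 1 further that way than at 0 min. By this rule 319 features were apart upward and 132 downward at 15 min (5.13% and 2.12% of 6220), 235 and 132 at 30 min (3.78% and 2.12%), and 384 and 246 at 60 min (6.17% and 3.95%). The courses of 1048 features gave them a class. Early and lasting genes, apart at 15, 30 and 60 min, numbered 62 higher and 26 lower. Genes apart from 30 min on numbered 98 higher and 42 lower, and genes apart at 60 min only 207 and 157; these 2 groups together, 504 genes, are called late. Transient genes, apart at 15 or 30 min or both but not at 60 min, numbered 280 higher and 132 lower. A further 21 features were apart at 15 and 60 min but not at 30 min, and 23 were apart in both directions at different times. Each class rests on single arrays, so counts describe these arrays and carry no test.

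**Figure D1:**
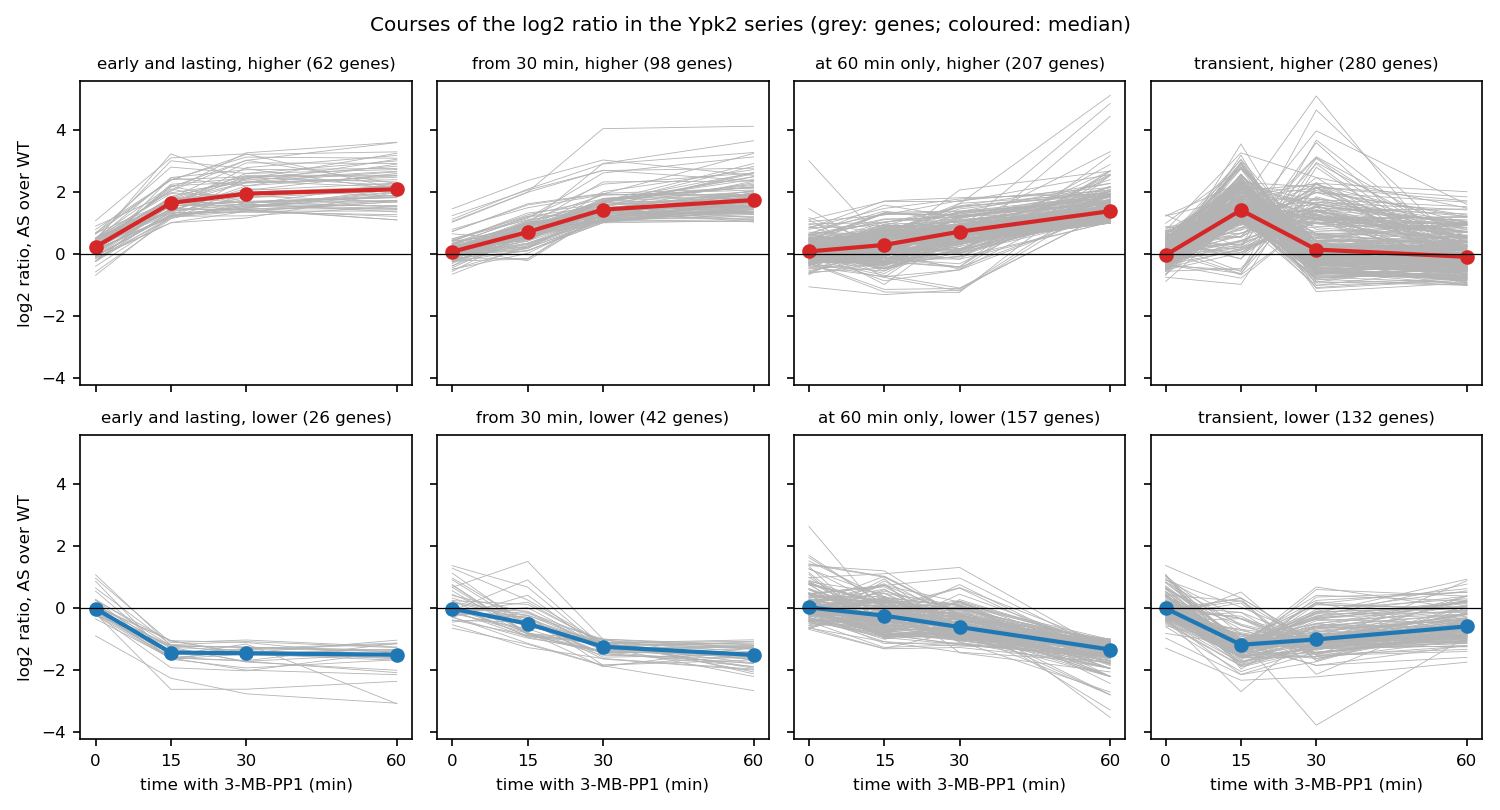
Log2 ratio of AS over WT cells (vertical) against minutes with 3-MB-PP1 (horizontal) for the genes of 4 courses, higher in the upper row and lower in the lower row; grey lines are genes and the coloured line is their median. The median of the 62 early and lasting higher genes is 1.65 at 15 min and 2.10 at 60 min, while that of the 280 transient higher genes is 1.43 at 15 min and −0.08 at 60 min.

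The ratio after the inhibitor was tested over the 3 later times with limma, against 0. It called 434 features higher in AS cells (6.98%) and 294 lower (4.73%). Without the 30 min arrays of both series it called 0 features. There, 1011 had an unadjusted p under 0.05 and the smallest adjusted p was 0.0722. Without the 60 min arrays of both series it also called 0, with 1054 and 0.0614. Such fits have fewer residual degrees of freedom, and leaving out the Ypk2 array alone was not tested. The ratio test favours genes with the same ratio at every time. The courses were cut from the same ratios, so the passing members of a class are only a description: 62 of 62 early and lasting higher genes and 25 of 26 lower ones passed, against 69 of 98 and 22 of 42 from 30 min, 54 of 207 and 34 of 157 at 60 min only, and 39 of 280 and 53 of 132 transient ones.

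The early and lasting genes that were higher in AS cells include calcineurin regulators, stress proteins and enzymes of reserve carbohydrate metabolism. The genes with the largest smallest change were ALD4, RCN1, HSP12, TPS1, CPP3, RCN2, COG2 and ADR1, and all 8 passed the test. RCN1 (YKL159C) and RCN2 (YOR220W), which bind and regulate the phosphatase calcineurin, had 0.22, 2.16, 3.03 and 2.28 and 0.65, 2.40, 3.13 and 3.09 at 0, 15, 30 and 60 min. Both were past 4-fold at 15 min, peaked at 30 min and stayed past 4-fold at 60 min, with later means of 2.49 ± 0.47 (SD, n = 3; adjusted p = 0.00191) and 2.88 ± 0.41 (SD, n = 3; adjusted p = 0.00191). HSP12 (YFL014W), a small membrane-associated stress protein, had 0.67, 2.81, 2.61 and 3.01. Its 3 later values were close together, with a mean of 2.81 ± 0.20 (SD, n = 3; adjusted p = 0.00172), but on the WT array, which held no AS cells and no inhibitor, it stood at 3.45. ALD4 (YOR374W), the main mitochondrial aldehyde dehydrogenase, had 0.03, 2.47, 2.21 and 2.54, and the WT array gave 1.76. TPS1 (YBR126C), the trehalose phosphate synthase, started lower in AS cells and had −0.68, 1.23, 1.24 and 1.54.

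The remaining 3 early and lasting genes named by the rule differed in when they peaked. COG2 (YGR120C), a subunit of a Golgi tethering complex, had 0.44, 3.24, 2.36 and 2.16, the highest value being the first after the inhibitor. ADR1 (YDR216W), the activator of genes for growth on ethanol and glycerol, had −0.57, 1.15, 1.67 and 1.82, its largest value at 60 min. CPP3 (YDR034W-B) had −0.22, 1.63, 2.30 and 2.48. HSP12, ALD4, ADR1 and RCN2 also stood above 1 on the WT array, whereas RCN1, CPP3, COG2 and TPS1 had 0.37, 0.50, 0.39 and 0.69 there. At the edge of the class, the smallest of a gene's 6 values (3 ratios and 3 changes) was 1.01 for YJR037W, just inside, and 1.00 for HTD2, just outside. Within 0.2 of the limit lay 22 members and 58 non-members.

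**Figure D2:**
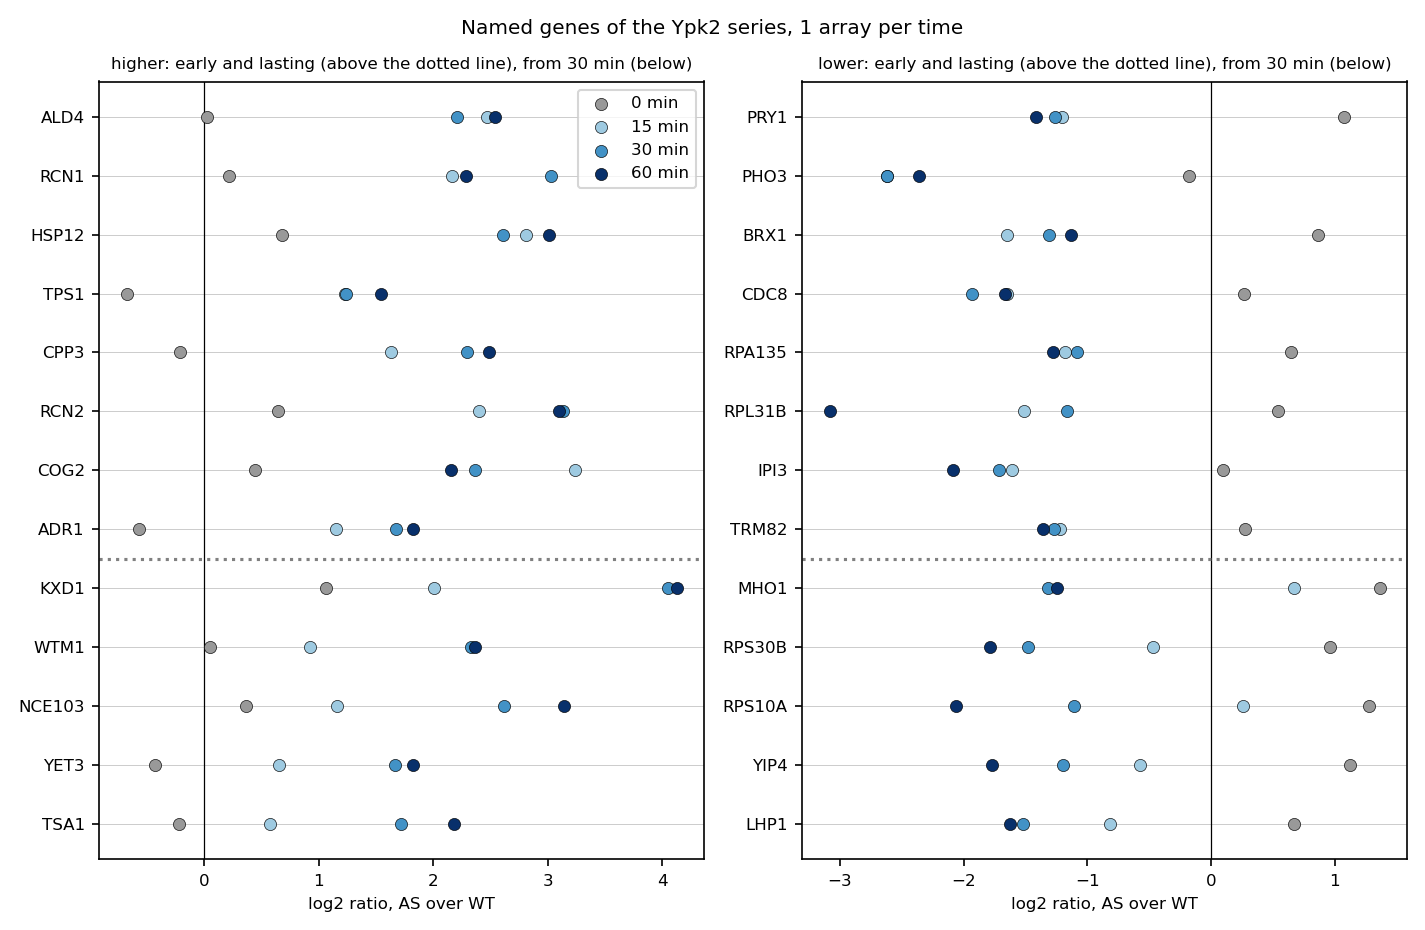
Log2 ratio of AS over WT cells (horizontal) at 0, 15, 30 and 60 min (grey to dark blue) for the 8 early and lasting and 5 later genes named in each direction, 1 array per time. Above the dotted line the 15, 30 and 60 min points lie away from the 0 min point; below it the 15 min point lies between the 0 min and 30 min points.

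Among the 26 early and lasting genes lower in AS cells, the 8 named were PRY1, PHO3, BRX1, CDC8, RPA135, RPL31B, IPI3 and TRM82, and all 8 passed the test. Of these, 5 serve ribosome production or tRNA modification. BRX1 (YOL077C), an assembly factor of the large ribosomal subunit, had 0.86, −1.65, −1.31 and −1.13. IPI3 (YNL182C), part of the Rix1 complex of the same pathway, had 0.09, −1.60, −1.71 and −2.08. RPA135 (YPR010C), the second-largest subunit of RNA polymerase I, had 0.65, −1.18, −1.08 and −1.28, nearly level at the later times (mean ± SD over 3 times −1.18 ± 0.10, adjusted p = 0.00825). BRX1 was lowest at 15 min and IPI3 at 60 min, so members of the pathway did not share the time of the lowest value. RPL31B (YLR406C), a large-subunit ribosomal protein, had 0.54, −1.51, −1.16 and −3.08, with its lowest value at 60 min, and TRM82 (YDR165W), a subunit of a tRNA methyltransferase, had 0.28, −1.22, −1.27 and −1.36.

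The other 3 have other roles. PHO3 (YBR092C), an acid phosphatase, had −0.18, −2.62, −2.62 and −2.36 and was the lowest of the 8 on average (later mean −2.53 ± 0.15, adjusted p = 0.00172). On the WT array it stood on the other side, at 1.18. CDC8 (YJR057W), the thymidylate kinase, had 0.27, −1.65, −1.93 and −1.67. PRY1 (YJL079C), a secreted sterol-binding protein, started higher in AS cells and had 1.07, −1.21, −1.26 and −1.41. At the edge of the class the smallest value was 1.03 for YJL064W, just inside, and 0.96 for RPL14A, just outside, with 14 members and 35 non-members within 0.2 of the limit.

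Genes apart from 30 min on were led upward by KXD1, WTM1, NCE103, YET3 and TSA1, all of which passed the test. NCE103 (YNL036W), the carbonic anhydrase, had 0.36, 1.15, 2.62 and 3.14, and TSA1 (YML028W), the major cytosolic peroxiredoxin, had −0.22, 0.58, 1.72 and 2.18. Both stepped up at each time. KXD1 (YGL079W), a subunit of the endosomal BLOC-1 complex, was already at 1.06 at 0 min and had 1.06, 2.0, 4.05 and 4.12, and it stood at 2.90 on the WT array. WTM1 (YOR230W), a transcriptional modulator, had 0.05, 0.92, 2.33 and 2.36, with the WT array at 1.31, and YET3 (YDL072C), an endoplasmic reticulum membrane protein, had −0.43, 0.65, 1.66 and 1.82. In KXD1 and WTM1 the 30 and 60 min values were nearly equal.

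Of the 5 leading genes lower from 30 min on, only LHP1 (YDL051W) passed the test (later mean −1.32 ± 0.44, adjusted p = 0.0162). LHP1, the yeast La protein that binds new RNA polymerase III transcripts, had 0.67, −0.81, −1.52 and −1.62. The small-subunit ribosomal protein genes RPS10A (YOR293W) and RPS30B (YOR182C) had 1.28, 0.26, −1.11 and −2.06 and 0.96, −0.47, −1.48 and −1.78 (adjusted p = 0.171 and 0.0773). Each was higher in AS cells at 0 min and lower from 30 min. YIP4 (YGL198W), a Golgi membrane protein, had 1.12, −0.57, −1.2 and −1.77 (adjusted p = 0.197) and stood at −2.50 on the WT array, and MHO1 (YJR008W) had 1.36, 0.67, −1.32 and −1.25 (adjusted p = 0.358). Of the late genes, 56 of the 98 higher and 22 of the 42 lower from 30 min on had a 60 min ratio at least 1 beyond the 15 min one.

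The genes apart at 60 min only rest on 1 array. The 6 named higher genes were RPL35B, SPC72, SUV3, PSE1, RAD27 and MRPS5, and none passed the test, which asks for a ratio held over the 3 later times. PSE1 (YMR308C), a nuclear import receptor, had −0.52, −0.11, −0.41 and 2.68. SPC72 (YAL047C), a spindle pole body component, had 0.20, −0.22, −0.40 and 3.18. RPL35B (YDL136W), a ribosomal protein gene, had −0.29, −1.22, −1.23 and 2.55, lower in AS cells at 15 and 30 min and higher at 60 min. SUV3, RAD27 and MRPS5 likewise went from ratios of −1.14, −1.18 and −1.10 at 30 min to 1.96, 1.79 and 1.38 (SUV3, a mitochondrial RNA helicase; RAD27, the flap endonuclease; MRPS5, a mitochondrial ribosomal protein).

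The 6 named lower genes at 60 min only were URA7, YRF1-5, MYO4, MRPL19, GSY1 and CGR1, and none passed. URA7 (YBL039C), the CTP synthase, had −0.26, −0.44, −0.31 and −3.29. MYO4 (YAL029C), a myosin that carries mRNA to the bud, had −0.18, −0.13, −0.40 and −2.80, and GSY1 (YFR015C), a glycogen synthase, had −0.25, 0.59, −0.58 and −2.80. YRF1-5, CGR1 and MRPL19 had a single low value as well. They were at 1.31, 0.97 and −0.05 at 30 min and −1.43, −1.43 and −2.43 at 60 min. YRF1-5 is one of a family of near-identical subtelomeric helicase genes, whose probes may not separate the copies, and the same limit holds for duplicated ribosomal protein genes.

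A property of the deposited values differed between the classes. In the 60 min array 7.0% of all features had a deposited ratio equal, at the 0.001 to which the ratios are given, to a ratio of whole numbers up to 10 (such as 1 over 2), against 4.88%, 4.74% and 5.87% at 0, 15 and 30 min. Among the genes lower at 60 min only the share at 60 min was 28.7% (45 of 157), and among the higher ones 10.1% (21 of 207). Transient genes had 11.8% (33 of 280) on the higher side and 8.33% (11 of 132) on the lower, and genes apart from 30 min 1.02% (1 of 98) and 7.14% (3 of 42). It was 3.23% in the early and lasting higher genes (2 of 62) and 0 of 26 in the lower ones. At 60 min, RPL35B, SPC72, SUV3, RAD27, MRPS5, YRF1-5, MYO4, MRPL19, GSY1 and CGR1 had such a ratio, and PSE1 and URA7 did not. Genes named in other paragraphs with such a ratio at 60 min included LHP1, RPS16B, HAC1, PGM2, GEF1 and HSC82. Without the features that had such a ratio at any time of the Ypk2 series, 127 of the 199 late lower genes were left. The measure was chosen after the values were seen, the arrays hold no intensities here, and its part in the result was not tested.

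**Figure D3:**
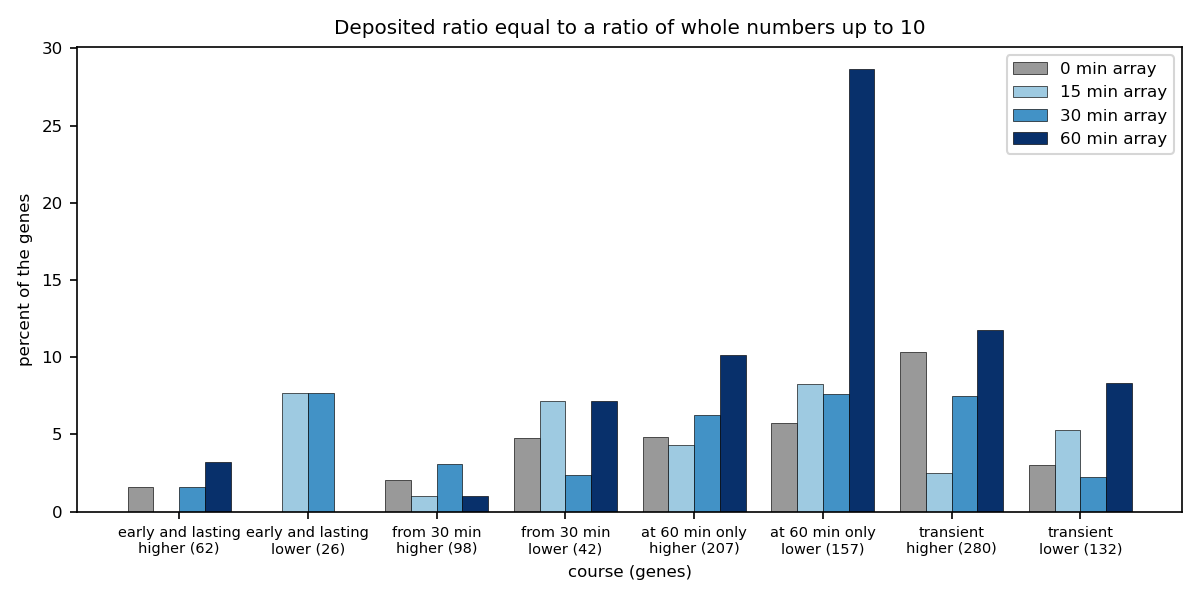
Percent of the genes of each course (vertical) whose deposited ratio equals, at the 0.001 given, a ratio of whole numbers up to 10, for the 0, 15, 30 and 60 min arrays (bars, grey to dark blue), with the number of genes in brackets. The 60 min bar of the genes lower at 60 min only, 28.7%, stands above all other bars.

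Most transient genes were apart at 15 min alone. Of the 280 higher ones, 208 were apart at 15 min only, 54 at 30 min only and 18 at both, and of the 132 lower ones 74, 37 and 21. For 214 higher and 47 lower genes the early ratio lay at least 1 beyond the 60 min ratio. None of the 12 named genes passed the test. NUP84 (YDL116W), a nuclear pore subunit, had −0.34, 3.55, −0.43 and −0.55, and ATM1 (YMR301C), a mitochondrial transporter needed for iron-sulfur cluster export, had 0.08, 2.94, −1.0 and −0.84. Both were high on the 15 min array alone. SNT1 (YCR033W), a subunit of the Set3 histone deacetylase complex, had 0.35, −0.55, 3.68 and −0.02, CDS1 (YBR029C), which makes CDP-diacylglycerol, 0.50, −0.16, 3.09 and −0.47, and RPL4A (YBR031W) 1.27, 0.19, 3.6 and −0.79. SNT1, CDS1 and GEF1 (YJR040W), a chloride channel at −0.11, 0.30, 2.92 and −0.62, were high on the 30 min array alone, while RPL4A was also above 1 at 0 min.

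On the lower side the transient genes included sulfur and amino acid metabolism. HUG1 (YML058W-A), an inhibitor of ribonucleotide reductase induced by DNA damage, had −0.34, −2.69, −0.68 and −0.39 and was the lowest at 15 min of those named (adjusted p = 0.0743). MET6 (YER091C), the methionine synthase, had 0.50, −1.14, −0.27 and 0.77, and LYS9 (YNR050C) of lysine synthesis had 0.10, −1.15, −0.16 and 0.93. Each was lower in AS cells at 15 min and higher at 60 min. NOP16 (YER002W), a ribosome biogenesis factor, had −0.12, −0.85, −1.16 and 0.88. RAD16, a nucleotide excision repair protein, was at −2.14 on the 30 min array alone, and SCY1 at −1.39 on the 15 min array alone.

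Some ratios were present before the inhibitor. A ratio of at least 1 one way at all 4 times was found for 41 genes upward and 2 downward. ATP4 (YPL078C), a subunit of the mitochondrial ATP synthase, had 1.62, 1.96, 1.80 and 1.60, and TAL1 (YLR354C), transaldolase, had 1.73, 1.65, 1.80 and 1.51. RDL1 and HXT12 had 1.52, 2.05, 2.31 and 2.03 and 1.59, 1.65, 2.11 and 2.30. All 4 passed the ratio test, which does not subtract 0 min. The later means of ATP4 and TAL1, 1.79 and 1.65, lay close to their 0 min ratios of 1.62 and 1.73. The lower ones were PHO84 (YML123C), the high-affinity phosphate transporter, at −1.29, −2.33, −2.22 and −1.75, and MRD1 (YPR112C), a pre-ribosomal RNA processing factor, at −1.02, −1.60, −1.37 and −1.05. PHO84 lay at least 1 lower at 15 min than at 0 min and moved back by 60 min, so it also counts as transient.

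A steady trend over time was tested with the slope of the ratio on minutes. By limma no feature passed (0.0%), with a smallest adjusted p of 0.353 and 469 features at an unadjusted p under 0.05. The 5 genes with the smallest p upward were NCE103, PMD1, ALD3, SPG4 and PSE1, of which SPG4 (YMR107W), a gene of stationary phase, had 0.26, 1.86, 2.43 and 3.25 and ALD3 (YMR169C), a stress-induced aldehyde dehydrogenase, 0.26, 1.38, 2.20 and 2.91. PMD1 (YER132C) had 0.26, 0.40, 0.86 and 3.31, so its slope rests on 60 min. Downward, all 5 were ribosomal protein genes, RPS16B, RPS10A, RPL31A, RPS29B and RPP1A. RPS16B (YDL083C) had 1.63, 0.11, −0.85 and −1.95, and RPP1A (YDL081C), of the ribosomal stalk, 1.37, 1.19, −0.27 and −1.26. The 5 ranged from 1.28 (RPS10A) to 1.63 (RPS16B) at 0 min and from −1.06 (RPL31A) to −2.06 (RPS10A) at 60 min, and each was lower at every time than at the one before.

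The courses of 30 lists of genes, 1031 genes in all, put these single genes in context. The lists overlap, and their counts are read beside the 6.98% of all features called higher and the 4.73% called lower by limma. Over all features the median is 0 at each time by construction.

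Cytosolic ribosomal protein genes began high and stepped down. The median of 137 genes was 0.65, −0.05, −0.35 and −0.50 at 0, 15, 30 and 60 min. The ratio was lower at each successive time for 47 of them (34.3%), against 547 of all 6220 features (8.79%). In the ratio test 13 were lower and 1 higher. By course, 14 were lower at 60 min only, a class that holds 2.52% of all features. Without centring the medians were 0.41, −0.25, −0.65 and −0.88.

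Ribosome biogenesis genes, which encode the factors that build ribosomes, were low from the first time on. The median of 103 genes was −0.15, −0.69, −0.89 and −0.82, so most of the difference was present at 15 min. Of them 42 were lower in AS cells and 0 higher. By course, 6 were early and lasting, 4 low from 30 min, 5 at 60 min only and 16 transient. The same classes on the lower side hold 0.418%, 0.675%, 2.52% and 2.12% of all features. RRP12 (YPL012W), an export factor of both subunits, had −0.35, −1.61, −2.0 and −2.15, and HAS1 (YMR290C), an RNA helicase, had −0.10, −1.60, −1.69 and −1.14. RRP12 was lowest at 60 min, while HAS1 was lowest at 30 min. The 24 genes of RNA polymerases I and III had 0.02, −0.65, −0.45 and −0.48, with 8 lower and 2 higher. RPA190 (YOR341W), the largest subunit of polymerase I, had 0.46, −1.59, −1.56 and −0.73, and RPA34 (YJL148W) of the same enzyme was higher in AS cells, with −0.36, 0.51, 1.35 and 1.93 (later mean 1.26 ± 0.71, adjusted p = 0.0307). The 67 mitochondrial ribosome genes had −0.10, 0.11, −0.18 and −0.39, with 3 lower and 0 higher, and MRP2 (YPR166C) among them had −0.81, −1.27, −1.51 and −1.67 (later mean −1.48 ± 0.20, adjusted p = 0.005).

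General stress genes, targets of Msn2 and Msn4, were high at 15 min and higher at 60 min. The median of 40 genes was 0.16, 0.54, 0.68 and 1.04, and 16 were higher and 1 lower. TFS1 (YLR178C), an inhibitor of carboxypeptidase Y, had 0.40, 2.06, 3.27 and 3.61, and PRB1 (YEL060C), the vacuolar proteinase B, had 1.08, 3.10, 3.24 and 2.11. TFS1 was highest at 60 min and PRB1 at 30 min. Of the members, 7 were early and lasting, 3 high from 30 min and 6 at 60 min only. These classes hold 0.997%, 1.58% and 3.33% of all features. Osmotic stress genes, 17 measured, had 0.27, 0.51, 0.90 and 1.26, with 9 higher and 0 lower, and GRE2 (YOL151W), a methylglyoxal reductase, had 0.30, 0.51, 1.75 and 2.01. On the WT array the medians of these lists were 0.42 and 0.21.

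Genes for the reserve carbohydrates trehalose and glycogen stood beside genes against oxidants on the higher side. The 21 trehalose and glycogen genes had −0.08, 0.36, 0.31 and 0.55, with 5 higher and 0 lower. PGM2 (YMR105C), phosphoglucomutase, had −0.03, 1.66, 1.40 and 1.70, and GSY2 (YLR258W), a glycogen synthase, had 0.15, 1.19, 1.0 and 1.15. Both were about as high at 15 min as at 60 min. The 32 oxidative stress genes had 0.01, 0.12, 0.38 and 0.73, with 9 higher and 0 lower, and 11 were higher at each successive time (34.4%, against 10.1% of all features). TSA2 (YDR453C), a peroxiredoxin, had 0.03, 0.49, 1.49 and 1.55, and TSA1 is given above. The 28 heat shock chaperones had 0.07, 0.24, 0.34 and 0.49, with 5 higher and 0 lower. At 60 min 1 of them was apart upward and 2 downward (6.17% and 3.95% of all features). HSC82 (YMR186W), apart downward at 60 min, had 0.20, −0.86, 0.27 and −1.21 and did not pass (adjusted p = 0.241).

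**Figure D4:**
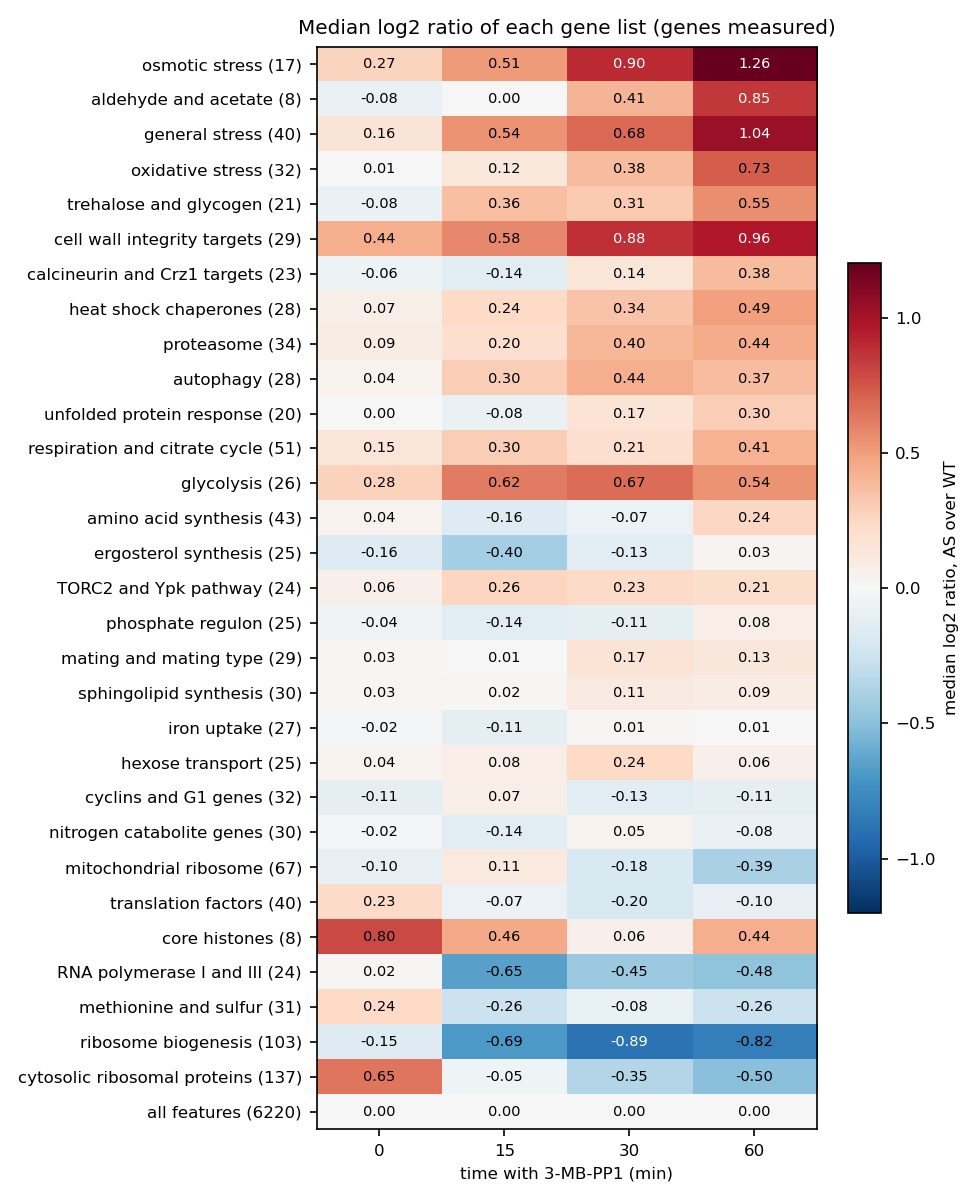
Median log2 ratio of AS over WT cells, printed and coloured (red high, blue low), for 30 gene lists and all features at 0, 15, 30 and 60 min, with the number of genes measured in brackets; lists are ordered by the median at 60 min minus that at 0 min. Osmotic stress is at the top (0.27 to 1.26) and cytosolic ribosomal proteins at the bottom of the lists (0.65 to −0.50); without centring, medians closer to 0 than the array median turn sign.

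Cell wall integrity targets of the Slt2 pathway were already high at 0 min. The median of 29 genes was 0.44, 0.58, 0.88 and 0.96, with 13 higher and 0 lower. With arrays scaled to one spread it was 0.70, 0.61, 1.08 and 0.91. After quantile normalization it was 0.64, 0.54, 0.94 and 0.88, so the order of the times depends on the normalization. NCW2 (YLR194C), a cell wall protein, had 0.48, 2.03, 3.03 and 3.6, CHS1 (YNL192W), chitin synthase 1, 0.53, 2.21, 2.33 and 2.66, and SLT2 (YHR030C), the MAP kinase itself, 0.52, 1.96, 1.89 and 1.68. NCW2 stepped up to 60 min, whereas SLT2 was highest at 15 min. YPS1 (YLR120C), a cell surface protease, had 1.13, 2.10, 2.91 and 3.28 and counts as apart from 30 min because it started at 1.13. Of 23 calcineurin and Crz1 targets 8 were higher and 0 lower, but the list's median was −0.06, −0.14, 0.14 and 0.38, and without centring it was −0.30, −0.33, −0.16 and 0.00, so its sign at 30 min depends on the centring. The passing members included RCN1, RCN2 and GYP7 (YDL234C), a GTPase-activating protein, with −0.23, 1.23, 1.59 and 1.57.

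Among genes of the TORC2-Ypk pathway itself, 1 was apart upward at 30 min and 1 at 60 min (3.78% and 6.17% of all features). The median of 24 was 0.06, 0.26, 0.23 and 0.21, and without centring −0.18, 0.06, −0.07 and −0.17, so its sign at 0, 30 and 60 min depends on the centring. Of the 24, 4 were higher and 0 lower in the ratio test. YPK2, already at 1.06 at 0 min, was among the higher ones. ORM2 (YLR350W), an inhibitor of sphingolipid synthesis that Ypk kinases phosphorylate, had 0.73, 1.63, 1.96 and 2.13 (later mean 1.91 ± 0.26, adjusted p = 0.00584). GPD1 (YDL022W), the glycerol phosphate dehydrogenase, had 0.60, 1.54, 1.43 and 1.29 (later mean 1.42 ± 0.12, adjusted p = 0.00674). ORM2 had its highest ratio at 60 min, GPD1 was highest at 15 min, and both were higher in AS cells at 0 min. NCE102 (YPR149W), an eisosome protein, and SLM1 (YIL105C), a TORC2-bound adaptor, had 1.40, 0.48, 0.16 and −0.57 and 0.61, 0.43, −0.24 and −1.0 and did not pass (adjusted p = 0.973 and 0.609). Of 30 sphingolipid genes 1 was higher, ORM2, and 2 lower, and of 25 ergosterol genes 1 was higher and 1 lower. RSB1 (YOR049C), a transporter of sphingoid bases, had 0.63, −0.56, −0.65 and −1.0, beside −3.03 between the WT strains, and ERG9 (YHR190W), squalene synthase, −0.40, −0.99, −1.27 and −1.34 (later mean −1.2 ± 0.18, adjusted p = 0.029).

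Some methionine and sulfur genes were low early and nearer 0 at 60 min, although the list as a whole did not return to its 0 min median. Its median change from 0 min was −0.30, −0.27 and −0.40 at 15, 30 and 60 min. The median of 31 was 0.24, −0.26, −0.08 and −0.26, with 6 lower and 1 higher, and 6 members were apart downward at 15 min and 0 at 60 min. MET2 (YNL277W), of homoserine acetylation, had 0.39, −1.90, −1.34 and −0.55, and SUL2 (YLR092W), a sulfate permease, had 0.46, −1.82, −1.16 and −0.49. Both moved toward 0 from 15 min on (later mean −1.26 ± 0.68, adjusted p = 0.0283 and later mean −1.16 ± 0.67, adjusted p = 0.0311). SAM1 (YLR180W) did so too, with 0.95, −0.94, −0.74 and −0.26, but did not pass (adjusted p = 0.132). SAM3 (YPL274W) passed and stayed low, with 0.66, −0.98, −0.91 and −0.83 (later mean −0.90 ± 0.08, adjusted p = 0.0285). Of 25 phosphate genes 2 were higher and 5 lower. PHO5 (YBR093C), the repressible acid phosphatase, had −0.20, −1.92, −2.02 and −1.39, while PHO89 (YBR296C), a sodium-phosphate transporter, had −0.45, 1.02, 0.59 and 1.05 and lay in the opposite direction. Of 30 nitrogen catabolite genes 2 were higher and 2 lower. MEP2 (YNL142W), an ammonium permease, had −0.22, −1.26, −1.74 and −2.01, and GAP1 (YKR039W), the general amino acid permease, −0.16, −1.49, −1.30 and −1.41; both were low on the WT array too, at −1.95 and −1.29.

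Among lists of energy metabolism, the 26 glycolysis genes had medians of 0.28, 0.62, 0.67 and 0.54, the highest 15 min median of the 30 lists, with 7 genes higher and 1 lower. Of 51 respiration and citrate cycle genes 9 were higher and 2 lower. CIT2 (YCR005C), the peroxisomal citrate synthase, had 1.46, 2.38, 3.04 and 2.54, and NDE1 (YMR145C), an external NADH dehydrogenase, 0.24, −1.57, −1.03 and −0.88. The respiration list stood at 0.58 on the WT array, above its median at each time of the Ypk2 series (0.15, 0.30, 0.21 and 0.41). GLK1 (YCL040W), glucokinase, had 0.31, 2.11, 1.61 and 2.29 (later mean 2.0 ± 0.35, adjusted p = 0.00287). The 34 proteasome genes had 0.09, 0.20, 0.40 and 0.44, with 4 higher and 1 lower, and the 28 autophagy genes 0.04, 0.30, 0.44 and 0.37, with 5 higher and 0 lower. ATG19 (YOL082W), a cargo receptor, had 0.14, 1.21, 1.5 and 1.91, and ATG5 (YPL149W) 0.35, 1.57, 1.59 and 1.72. HAC1 (YFL031W), the transcription factor of the unfolded protein response, had 0.24, 1.78, 2.0 and 2.18 (later mean 1.99 ± 0.20, adjusted p = 0.00366), while its list of 20 genes had 0.00, −0.08, 0.17 and 0.30, with 3 higher and 0 lower. The 8 core histone genes had 0.80, 0.46, 0.06 and 0.44, highest before the inhibitor, and 1 passed.

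Without centring every list median is lower by about the array median, and those closer to 0 than that turn sign. Among the medians printed so far this holds at 0 min for heat shock chaperones (−0.17), general stress (−0.08), oxidative stress (−0.23), RNA polymerases I and III (−0.22), respiration (−0.09), proteasome (−0.15), autophagy (−0.20) and the unfolded protein response (−0.24). After the inhibitor it holds for oxidative stress (−0.07) and the mitochondrial ribosome (−0.08) at 15 min, for respiration (−0.10), core histones (−0.24) and the unfolded protein response (−0.14) at 30 min, and for the unfolded protein response (−0.08) and autophagy (0.00) at 60 min, beside the calcineurin and TORC2-Ypk lists given above.

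Among genes of the remaining lists, a few of known role passed. FET3 (YMR058W), the ferroxidase of iron uptake, had −0.54, −1.27, −1.63 and −1.97 (later mean −1.62 ± 0.35, adjusted p = 0.0239), the list counting 4 of 27 lower and 2 higher. CLB2 (YPR119W), a mitotic cyclin, had −0.47, −1.85, −1.2 and −1.10 (later mean −1.38 ± 0.41, adjusted p = 0.0372), and PCL1 (YNL289W), a G1 cyclin, had −0.26, 0.74, 1.08 and 1.37 (later mean 1.07 ± 0.32, adjusted p = 0.0291). CLB2 was lowest at 15 min and PCL1 highest at 60 min. TIF4631 (YGR162W), a translation initiation factor, had −0.01, 0.95, 1.42 and 1.53 (later mean 1.30 ± 0.31, adjusted p = 0.0109), although the 40 translation factors had medians of 0.23, −0.07, −0.20 and −0.10, the first of which is −0.01 without centring. ARO4 (YBR249C), of aromatic amino acid synthesis, had 0.93, −1.18, −0.56 and −2.06 (later mean −1.27 ± 0.75, adjusted p = 0.0345), in a list of 43 with 4 lower and 3 higher. Of 25 hexose transport and sensing genes 3 were higher and 4 lower, of 8 aldehyde and acetate genes 2 higher and 0 lower, of 32 cyclins and G1 genes 1 and 2, of 29 mating genes 2 and 1, and of 40 translation factors 1 and 2.

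Where 5 or fewer genes of a list passed in a direction, those outside the naming rule are given here, chosen after their values were seen. The 5 heat shock chaperones were HSP104, SSA2, SSE1, SSC1 and HCH1. HSP104 (YLL026W), the disaggregase, had 0.77, 1.68, 1.53 and 0.78, and SSA2 (YLL024C), a cytosolic Hsp70, had 1.01, 1.18, 1.43 and 1.65. The unfolded protein response genes beside HAC1 were PDI1 (YCL043C), the disulfide isomerase, with 1.53, 1.39, 2.09 and 1.51, and ERO1, its oxidase. SSA2, SSE1, HCH1 and PDI1 were already above 1 at 0 min (1.01, 1.15, 1.32 and 1.53), and the ratio test does not subtract 0 min. SSE1 was at 0.84 at 60 min, below its 0 min ratio, and HSP104 was back near its own. The proteasome genes were PRE2, PRE8, RPT4 and RPT5 upward and RPN12 downward, and the autophagy genes further included ATG7, ATG8 and ATG33. ATG8 (YBL078C), the ubiquitin-like protein of autophagosomes, had 0.21, 0.95, 0.70 and 1.26. Of reserve carbohydrate genes NTH1, the neutral trehalase, and PIG2 completed the 5, with 0.65, 1.17, 1.53 and 1.37 for NTH1 (YDR001C). Thus the synthase gene TPS1 and the trehalase gene NTH1 were both higher in AS cells. Other trehalose genes of the list, TPS2, TPS3, TSL1, NTH2 and ATH1, did not pass. TSL1 (YML100W) had −0.46, −0.83, −0.83 and −0.76.

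On the nutrient side, GPP2 (YER062C), a glycerol phosphatase, was the second higher gene of the phosphate list with 0.27, 1.21, 1.16 and 1.26, and PHO84, PHO86 and PHM6 completed its 5 lower ones. The higher nitrogen genes were DAL3 and PUT1, and the higher sulfur gene was MET17 (YLR303W) with 0.97, 1.10, 0.83 and 1.11. Amino acid synthesis had ARG1, SER3 and GCN4 upward and LYS20, LYS21 and SER33 downward beside ARO4. GCN4 (YEL009C), the activator of amino acid synthesis genes, had 1.06, 0.92, 1.41 and 0.42. MET17 and GCN4 too were about as high before the inhibitor. The serine pathway paralogs SER3 (YER081W) and SER33 (YIL074C) lay in opposite directions, with −0.05, 0.56, 1.21 and 1.67 and −0.38, −0.93, −0.85 and −1.51. The lower hexose genes SNF3, RGT2, STD1 and MIG1 encode glucose sensors and parts of glucose repression, and the higher ones besides GLK1 were the transporters HXT2 and HXT8. RGT2 (YDL138W) had −0.27, −1.18, −1.26 and −0.69 and HXT2 (YMR011W) 0.50, 1.12, 1.05 and 1.51. Iron uptake had FTR1, SIT1 and ATX1 downward beside FET3, and FIT1 and HMX1 upward; FTR1 (YER145C), the permease that pairs with FET3, had −0.46, −1.10, −1.12 and −1.36.

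Genes that passed against the direction of most passing members of their lists included RTC3 (general stress, lower) and RPS25A (ribosomal proteins, higher). ENO2 (glycolysis, lower) and RPA12 (RNA polymerase I, higher, as RPA34 was) did so too. RPA12 (YJR063W) had 0.48, 1.99, 1.61 and 0.85, and RTC3 (YHR087W) had −0.42, −0.34, −1.5 and −1.33. PKH2 (YOL100W), a kinase that activates Ypk kinases, was the fourth higher gene of the TORC2-Ypk list at 0.19, 0.66, 0.84 and 0.75. YPC1, a ceramidase, was lower and HMG2, an HMG-CoA reductase, higher, with −0.76, −0.56, −1.05 and −1.53 for YPC1 (YBR183W) and −0.24, 0.54, 0.93 and 0.64 for HMG2 (YLR450W). The other passing genes outside the naming rule, whether or not they went with their lists, were PRT1 and NIP1 (translation initiation, lower) and HTA1 (histone H2A, higher). To these add RNR3 (lower), FUS1 (mating, higher), QCR6 (respiration, lower), and MRPS16 and MRPL51 (mitochondrial ribosome, lower).

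The order of the lists was also read from how much of the 60 min change from 0 min was already present. Over all genes apart upward at 60 min the median share was 35.4% at 15 min and 67.6% at 30 min, and downward 33.7% and 61.5%. Upward, trehalose and glycogen genes (101% at 15 min, 4 genes), calcineurin targets (80.9%, 5 genes) and autophagy genes (67.0%, 5 genes) came before general stress (51.8%, 17 genes), aldehyde and acetate (42.3%, 3 genes) and cell wall genes (38.3%, 10 genes). Oxidative stress (29.5%, 6 genes), osmotic stress (23.8%, 5 genes), respiration (13.6%, 8 genes), proteasome (12.5%, 4 genes) and nitrogen catabolite genes (9.07%, 4 genes) followed. At 30 min the proteasome genes had 68.9% and respiration 40.6%. Downward, the order was phosphate (80.9%, 4 genes), nitrogen catabolite (73.1%, 3 genes), ribosome biogenesis (69.8%, 16 genes), amino acid synthesis (57.1%, 3 genes), ribosomal protein (54.8%, 27 genes) and mitochondrial ribosome genes (−7.69%, 4 genes). Lists with fewer than 3 such genes were given no share. These medians rest on few genes, chosen at 60 min, and no test of their order was made.

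The classes were cut on the Ypk2 arrays, so the Ypk1 series and the WT array offer values they did not use. Those arrays differ in inhibitor, dose and kinase, so values stand side by side with no test. In the Ypk1 series 315 features (5.06%) were apart upward at 2 or more later times, and 282 (4.53%) downward. Among the early and lasting genes, 49 of 62 higher (79.0%) and 17 of 26 lower (65.4%) were so in the same direction. The share was 48.0% and 23.8% for genes apart from 30 min, 18.8% and 11.5% for those at 60 min only, and 11.1% and 34.8% for transient genes. A gene that repeated a course apart at 60 min only, or at a single early time, would not count by this measure. The shares therefore cannot show which courses the Ypk1 series repeated more often. The median of the early and lasting higher genes in the Ypk1 series was 0.52, 1.44, 2.20 and 1.93, against 0.24, 1.65, 1.95 and 2.10 in the Ypk2 series. Transient higher genes had a median of 0.41 at 15 min in the Ypk1 series against 1.43 in the Ypk2 series, and transient lower genes had −0.39 at 15 min, −1.0 at 30 min and −0.95 at 60 min, lasting to the end there.

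**Figure D5:**
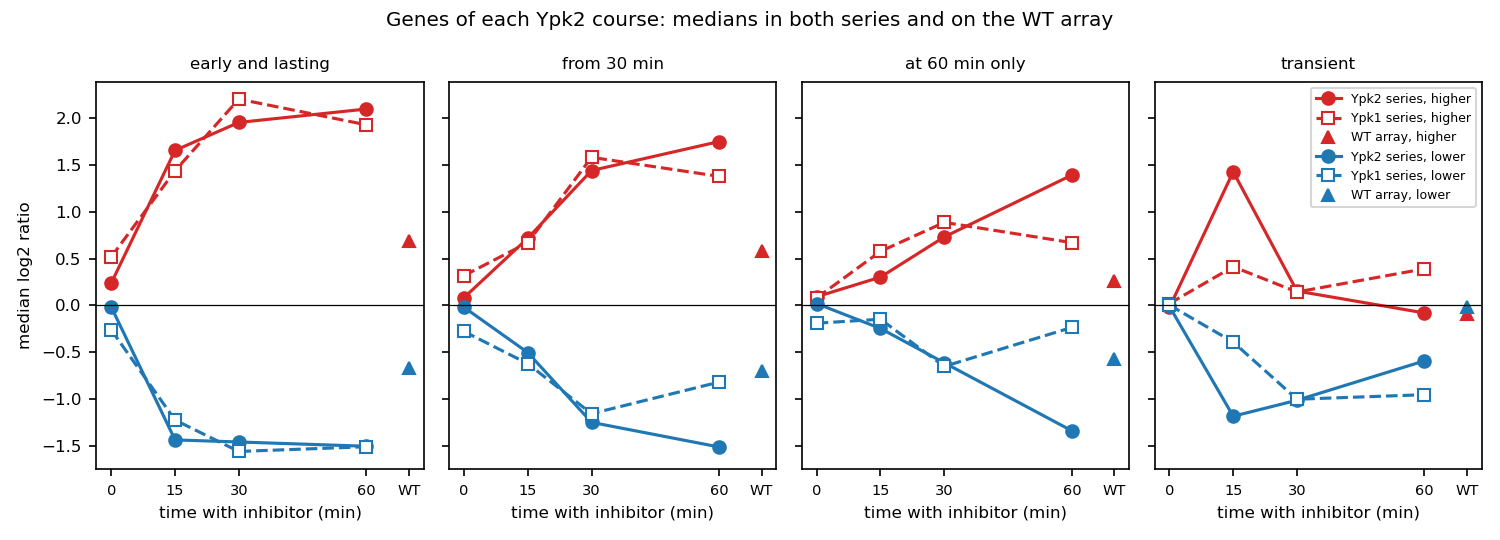
Median log2 ratio (vertical) of the genes of each Ypk2 course in the Ypk2 series (filled circles), the Ypk1 series (open squares, dashed) and on the WT array (triangles, at the right) against minutes with inhibitor; red is higher and blue lower. The early and lasting medians lie close together in the 2 series at the later times, and the transient higher genes have a taller 15 min median in the Ypk2 series (1.43 against 0.41).

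The WT array gave the early and lasting genes medians in the same direction, 0.69 for the higher and −0.66 for the lower ones. The medians were 0.58 and −0.70 for genes apart from 30 min, 0.26 and −0.57 for those at 60 min only, and −0.10 and −0.02 for transient genes. Across 6218 genes the WT array correlated with the Ypk2 arrays at r = 0.21, 0.20, 0.43 and 0.47 at 0, 15, 30 and 60 min. That array shares neither AS cells nor inhibitor with the Ypk2 series, and WT Ypk2 cells are in its Cy5 channel. Its part in the Ypk2 ratios was not tested.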

How the data were processed

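The series' value table, as deposited by the authors, holds log2 ratios of Cy5 over Cy3. How they were normalized is not given in the sources used here. The base and direction were read from the values. All table columns were mapped to samples by title. Of 6268 features, 48 lacked a value on a time course array and were left out, and 5777 were matched to R64 gene names by systematic name. Each array was centred on its median. Ratios and slopes were modelled in R 4.3.3 with limma 3.58.1 over all 8 time course arrays, with 4 residual degrees of freedom, Benjamini-Hochberg adjustment over 6220 features and a threshold of 0.05, and both fits were tested on simulated data. Course classes used a limit of 1. The number of arrays limits the precision.

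The genes named are the leading genes of each class and direction (8 early and lasting, 5 from 30 min, 6 at 60 min only, 6 transient, 4 already apart, 5 by trend), up to 4 genes of each list by mean change, and YPK1, YPK2 and 5 comparison genes; the markers of mating type were given too. YJR037W, HTD2, YJL064W and RPL14A were named for their place at the class limit, after their values were seen. The members, lists and rules were chosen with earlier results of these data known. Promoters were not analysed here.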

Additional observations from a re-analysis of the deposited data

How the results depend on the processing

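The ratio test called 728 features, and 4 of 9 alternatives stayed within 1.5 times of that. It called 1214 with arrays scaled to one spread, 1156 after quantile normalization and 4157 with array weights, whose estimation did not converge and gave the 30 min Ypk2 array a weight of 13.7. Without the 30 min or the 60 min arrays of both series it called 0, as given above, and without the 15 min arrays of both 756. Without centring 840 passed, of which 26.9% were higher in AS cells against 59.6% with centring. The trend test called 0 features under all 9 alternatives, with 174 to 935 at an unadjusted p under 0.05 and adjusted p-values from 0.106 upward.

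With a limit of 1.5-fold in place of 2-fold, there were 207 early and lasting higher and 138 lower genes, 567 and 499 late, and 503 and 347 transient. With a limit of 1.5 on the log2 scale the counts were 20 and 3, 129 and 61, and 136 and 31. The ratio alone, without the change from 0 min, gave 184 and 58 early and lasting, 314 late lower and 435 transient higher genes. The change alone gave 132 early and lasting lower, 355 late lower and 235 transient lower genes. Without centring there were 50 early and lasting lower, 175 late higher and 395 late lower genes. Scaling gave 200 transient lower and quantile normalization 116 late lower genes. Alternatives chosen after seeing the data gave 127 late lower genes without features of whole-number ratios, and 47 early and lasting lower genes without 60 min. The cause of these shifts was not tested. Over all genes apart at 60 min, the shares of that change present early stayed within 1.5 times of the main values under all 3 alternatives. The shares of single lists, and so their order, were not tested under these alternatives. With arrays scaled to one spread the upward share at 30 min went from 67.6% to 91.8%. Without subtraction of 0 min the upward share at 15 min went from 35.4% to 48.3%. No paired analysis was possible because the labels carry no replicate numbers and each condition has 1 array. The files hold no intensities, so signal over background is unknown.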
